A study of Mus musculus with 24 samples.

Results

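The inflammatory cytokine genes examined were 10 members of the TNF, IL-1 and IL-12 classes, namely Tnf, Il1a, Il1b, Il1rn, Il6, Il12a, Il12b, Il23a, Il18 and Il27. They were chosen as all probes whose gene name on the array equalled 1 of these symbols, which gave 12 probes for 10 of the 21597 gene symbols on the array. Each gene had 1 probe, except Il1a and Il1rn, which had a pair each. All 10 were among the 17345 genes tested, because each had a probe well above background in both replicates of at least 1 condition, a requirement that a gene could meet through the condition in which it was highest.

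TNF, IL-1 and the IL-12 family are secreted proteins with which macrophages alarm and instruct other immune cells. When Toll-like receptor 4 (TLR4) senses bacterial lipid A, transcription factors that include NF-κB and members of the interferon regulatory factor family switch on their genes in successive waves, and inhibitors such as the IL-1 receptor antagonist are made as well. The IL-12 family is built from shared chains: p40 pairs with p35 to form IL-12 and with p19 to form IL-23, while p28 pairs with the EBI3 chain to form IL-27.

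The RNA was profiled on 12 Agilent mouse arrays of 2 colours, each carrying in its Cy5 and Cy3 channels a pair of biological replicates of a single condition, so that 24 channels covered 12 conditions in C57BL/6 mouse cells. The cells were peritoneal macrophages elicited with thioglycollate and kept as adherent cells overnight (EPM), bone marrow-derived macrophages grown for about a week in L-cell medium as the source of M-CSF (BMDM), and resting splenic B cells obtained by magnetic removal of cells that carry CD43 or CD11b. Kdo2 lipid A (KLA), a specific agonist of TLR4, was given for 1 h or 12 h. The 12 h control of each cell type was DMSO for 12 h, whereas the early control was DMSO for 1 h in BMDM and untreated cells in EPM and B cells. The labels give no genetic change for any group. Each cell type lay on a slide of its own, so the slide cannot be told apart from the cell type in any comparison of levels across cell types, and each condition lay on a single array, so array and condition cannot be told apart either. The spread between the channels of an array, on which the adjusted p-values rest, therefore leaves out any difference between arrays, and a fit on array means is given beside the counts below.

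Between 57.4% and 65.0% of probes were well above background in a channel. The 10 macrophage markers checked, Csf1r and Cd68 among them, were all well above background in EPM and BMDM, and the 10 B cell markers, Pax5 and Blnk among them, were so in B cells. In B cells 6 to 7 of the macrophage markers were well above background, with a summed log2 level of 11.86 to 12.81 against 19.14 to 19.33 in macrophages, and Itgam, Fcgr1 and Mrc1 were not. The sum in B cells was led by Ctsd. Emr1 read 7.52 in untreated B cells, 7.44 with KLA for 1 h, 10.88 with DMSO for 12 h and 10.61 with KLA for 12 h. The median macrophage marker read 7.09 in untreated B cells and 6.96 with DMSO for 12 h. Of the 10 T cell markers, 6 to 7 were detected in B cells (summed level 12.37 to 12.73). In EPM 5 to 7 of the 10 B cell markers were detected (summed level 15.92 to 16.02, against 18.12 to 18.38 in B cells), with Cr2, Ebf1 and Fcer2a not above background. The sum in EPM was led by Blnk, which read 15.97 in untreated EPM and 16.07 in untreated B cells. The median B cell marker read 6.32 in untreated EPM and 12.28 in untreated B cells. For the 9 neutrophil markers the numbers detected were 4 to 5 in EPM (10.34 to 11.56) and 6 to 8 in BMDM (13.34 to 14.40), and for the 6 NK cell markers 0 to 1 in either. The neutrophil sum in BMDM was led by S100a9 (13.01 to 14.17), with a median marker of 7.96 to 8.68. The part of such cells in the values below was not tested, and in bulk RNA fewer cells of a type and less RNA per cell cannot be told apart. For B cells the deposited data conflict with each other: the authors' normalized columns for KLA 1 h and DMSO 12 h resembled each other's scanner channels (r across probes 0.97 or more) and not their own (r of -0.77 to -0.71), whereas the other 20 columns resembled their own (r of 0.96 or more). B cell results are therefore given as labelled in the scanner data and with these conditions exchanged.

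Promoter sequence was available for 8 of the 10 genes in RefSeq windows of GRCm38.p6 (11 windows), and the 100 bases before the start are printed for the 5 genes that rose in both macrophage types at both times by more than 1 on the log2 scale. Capitals mark a match to 1 of 5 motifs searched on both strands, namely the TATA box TATAAA, the AP-1 site TGANTCA, the GC box GGGCGG, printed as its reverse complement where it lies on the opposite strand, the kappaB site and the interferon-stimulated response element.
Tnf, chr17:35202008-35202107, minus strand: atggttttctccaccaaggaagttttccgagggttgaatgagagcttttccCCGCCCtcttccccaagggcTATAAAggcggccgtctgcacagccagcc
Il1a, chr2:129309973-129310072, minus strand: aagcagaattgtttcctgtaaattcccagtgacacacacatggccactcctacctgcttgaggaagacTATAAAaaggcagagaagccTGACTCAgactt
Il1b, chr2:129371140-129371239, minus strand: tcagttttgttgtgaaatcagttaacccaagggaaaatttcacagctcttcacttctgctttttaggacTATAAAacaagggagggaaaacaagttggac
Il6, chr5:30013014-30013113, plus strand: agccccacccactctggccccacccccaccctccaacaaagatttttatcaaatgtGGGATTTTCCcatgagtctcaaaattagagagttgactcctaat
Il12b, chr11:44399963-44400062, plus strand: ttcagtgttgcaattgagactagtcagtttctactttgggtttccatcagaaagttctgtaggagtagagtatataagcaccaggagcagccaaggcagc

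The TATA box of Tnf began 29 bases before the start, that of Il1b 31 and that of Il1a 32 bases before it. Over the whole windows of 250 bases before to 50 after the start, TATAAA occurred on either strand in 5 of the 11 windows. Of all 32851 windows, 13.6% held it. The 5 windows belonged to Tnf, Il1a, Il1b, Il1rn and Il18, of the 8 genes. The matches of Il1rn and Il18 were on the opposite strand. That of Il1rn lay 15 bases after the start and that of Il18 more than 100 bases before it. Only the TATAAA matches of Tnf, Il1a and Il1b lay 29 to 32 bases before the start. The share of all windows with a match at that position was not counted, so this placing cannot be read against other genes. An AP-1 match was present in 3 of the 11 windows, for Il1a, Il6 and Il1rn (7.81% of all windows). A kappaB match was present in 1, for Il6 (8.46%), and a GC box in 2, for Tnf and Il12a (35.7%). No window of these genes held the interferon-stimulated response element, which occurred in 3.44% of all windows, and Il12b had no exact match to any of the motifs. Its printed bases hold tatataa near the start, a similar run of letters that the pattern TATAAA does not match. The search therefore does not show that Il12b lacks a TATA box. These matches describe letters in the window and are not evidence of binding.

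In EPM, 8 of the 10 genes rose with KLA at 1 h and none fell, where 9.39% of all genes tested rose and 19.7% fell, and at 12 h 8 rose and none fell, where 19.6% of all genes rose and 34.3% fell. Il18 and Il27 did not pass the test at 1 h, and Il23a and Il27 did not at 12 h. BMDM showed 9 genes higher at 1 h, all but Il12a, where 11% of all genes rose and 17.6% fell, and 9 higher at 12 h, all but Il23a, where 28.6% rose and 36.3% fell. The median log2 change of the 10 genes was 1.91 in EPM at 1 h, 3.16 in EPM at 12 h, 2.32 in BMDM at 1 h and 3.32 in BMDM at 12 h, whereas that of all genes tested lay between -0.06 and -0.03. B cells had 0 of the 10 genes past the threshold at 1 h by limma (2 had an unadjusted p under 0.05, the lowest adjusted p was 0.163, and the fit with the replicate block called Tnf at an adjusted p of 0.0394), against 5.17% of all genes in either direction, and 2 at 12 h, Il6 and Tnf, both higher, against 2.81% of all genes that rose. With the array means as samples, the controls of a cell type as replicates of 1 control group and 3 residual degrees of freedom, 5 genes were called in EPM at 1 h (Tnf, Il1a, Il1b, Il12b and Il23a), against 0.94% of all genes, and 8 in EPM at 12 h (all but Il23a and Il27), against 11.5%. That fit called 3 in BMDM at 1 h (Il1a, Il6 and Il12b), against 0.577% of all genes, 6 in BMDM at 12 h (Il1a, Il1b, Il1rn, Il6, Il12b and Il18), against 21%, and 0 in B cells at 12 h (1 at an unadjusted p under 0.05), where 0% of all genes were called.

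**Figure D1:**
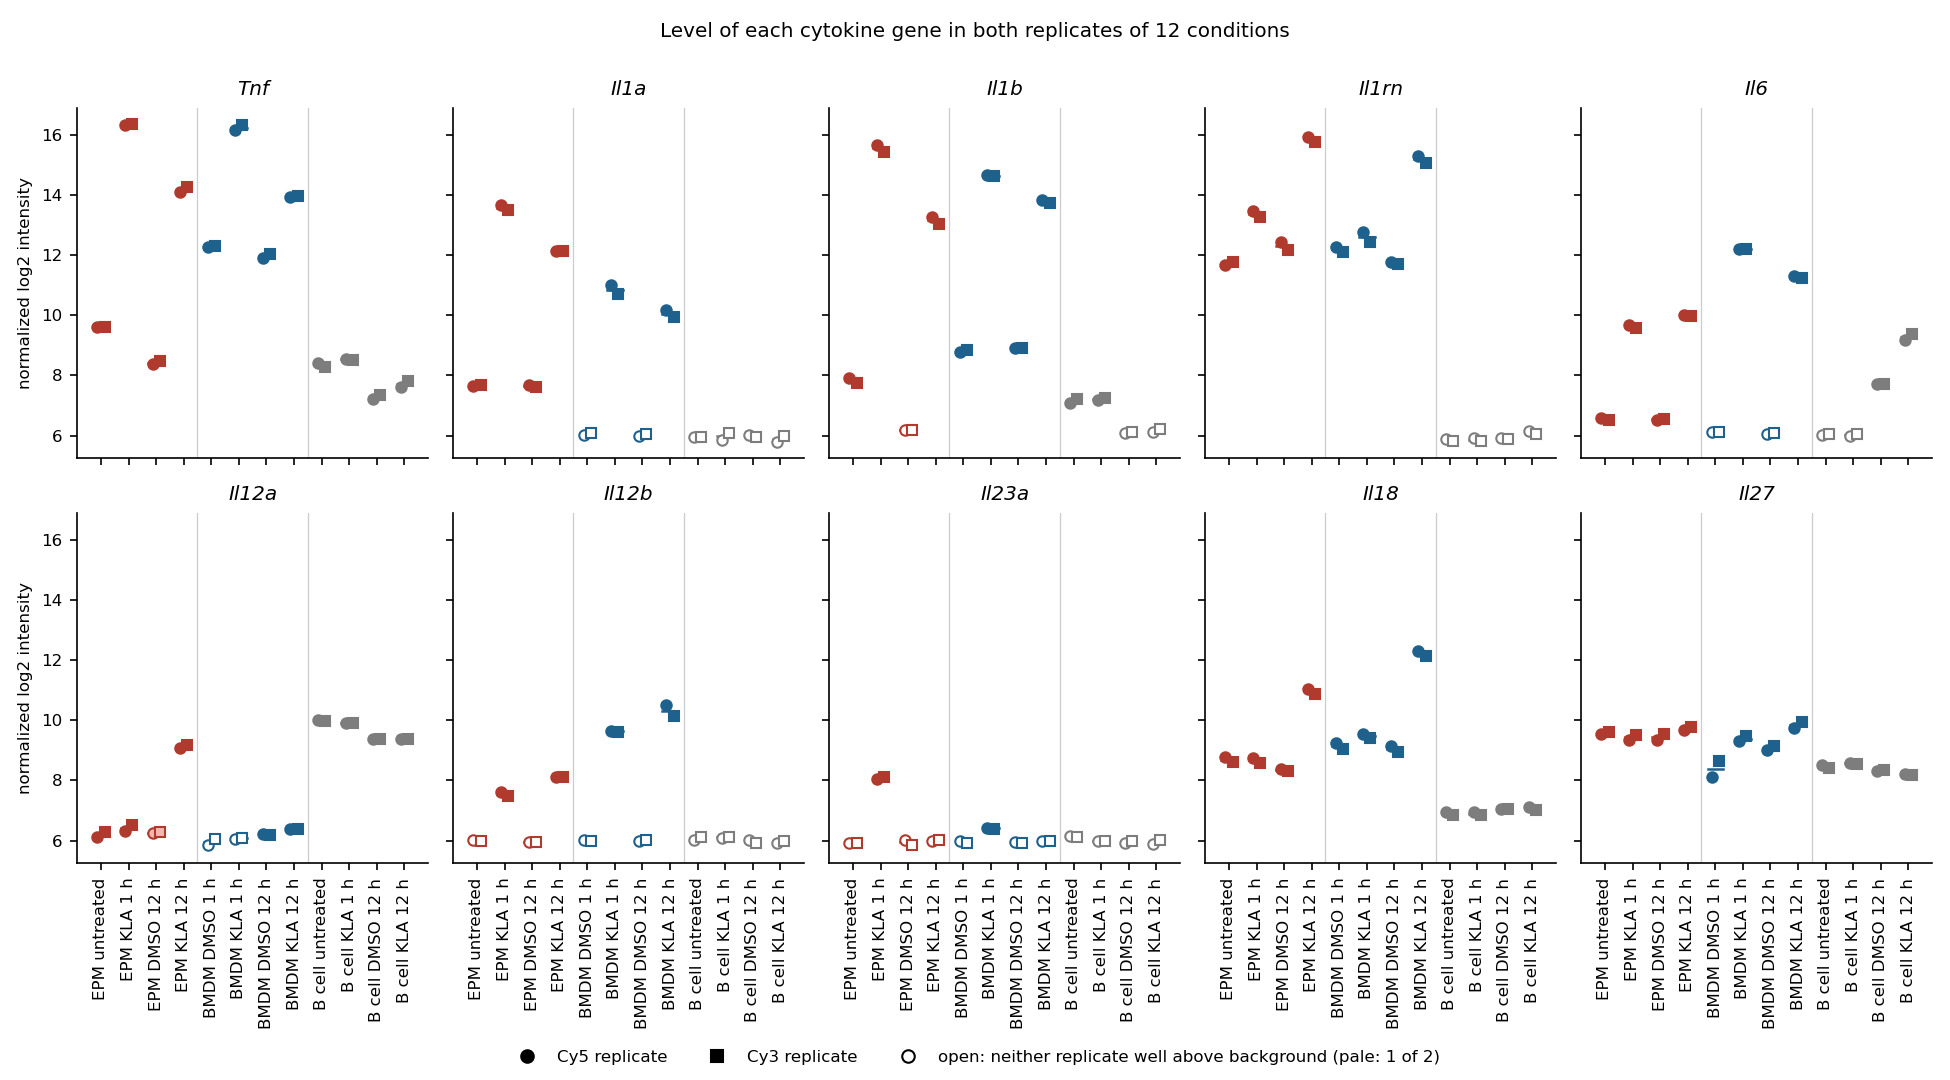
Normalized log2 intensity (vertical axis) of each of the 10 cytokine genes in 12 conditions (horizontal axis), with the Cy5 replicate as a circle and the Cy3 replicate as a square, in red for EPM, blue for BMDM and grey for B cells, and open symbols where neither replicate was well above background. Tnf stood at 16.31 and 16.37 in EPM after 1 h of KLA, and Il12a was highest in B cells.

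Levels below are normalized log2 intensities of the probe, given as the Cy5 and then the Cy3 replicate, and they cannot be compared between genes. A log2 change is KLA minus the control of the same cell type and time, with its standard error (SE). The control at 1 h is untreated cells in EPM and B cells and DMSO for 1 h in BMDM. Adjusted p-values are from limma, corrected by Benjamini-Hochberg for all genes tested. Where no replicate of the control was well above background, the fold is a lower bound, written as at least. Statements that replicates of KLA and control did not overlap describe 2 channels per group and are no test. Il12a in B cells at 1 h, for example, had separate replicates at an adjusted p of 0.58.

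Tnf encodes tumour necrosis factor, the cytokine that activates endothelium and other leukocytes within minutes to hours of infection. Its probe (chr17:34807902-34807961, minus strand, mm8, 10 spots per array) was well above background in every channel. In EPM Tnf stood at 9.60 and 9.62 untreated, at 16.31 and 16.37 after 1 h of KLA, at 8.37 and 8.48 after 12 h of DMSO and at 14.11 and 14.25 after 12 h of KLA. In BMDM it stood at 12.27 and 12.32 with DMSO for 1 h, at 16.16 and 16.32 with KLA for 1 h, at 11.92 and 12.04 with DMSO for 12 h and at 13.93 and 13.98 with KLA for 12 h. KLA and control replicates did not overlap at either time in either macrophage, and the BMDM controls lay above the EPM controls. The log2 change in EPM was 6.73 at 1 h (SE 0.08, 106-fold, adjusted p = 1.20e-20) and 5.75 at 12 h (54.0-fold, adjusted p = 1.54e-20). In BMDM the change was 3.95 at 1 h (15.4-fold, adjusted p = 1.86e-17) and 1.97 at 12 h (3.93-fold, adjusted p = 6.84e-14).

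The change of Tnf was larger in EPM than in BMDM by 2.79 at 1 h (SE 0.11, adjusted p = 8.15e-12) and at 12 h by 3.78 (adjusted p = 2.01e-14). The KLA levels themselves differed by only 0.10 between EPM and BMDM at 1 h (adjusted p = 0.275) and at 12 h by 0.23 (adjusted p = 0.015), whereas the early control of EPM was lower than that of BMDM (difference -2.68, adjusted p = 9.13e-16). Untreated EPM and the DMSO 12 h control also differed, by 1.18 (adjusted p = 4.52e-09), the untreated cells being higher. From 1 h to 12 h the KLA level of Tnf fell by 2.16 in EPM and by 2.29 in BMDM.

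Il1a and Il1b encode IL-1α and IL-1β, the agonists of the IL-1 receptor, both made as precursors without a signal peptide. Il1b was read by a probe with 10 spots (chr2:129056052-129056111, minus strand, mm8). Its level in EPM was 7.91 and 7.76 untreated, 15.67 and 15.42 after 1 h of KLA, 6.19 and 6.19 after 12 h of DMSO, where it was not well above background, and 13.27 and 13.05 after 12 h of KLA. BMDM had 8.79 and 8.84 with DMSO for 1 h, 14.67 and 14.62 with KLA for 1 h, 8.91 and 8.91 with DMSO for 12 h and 13.84 and 13.74 with KLA for 12 h. All KLA replicates were above all controls, and EPM with KLA for 1 h had the highest values. The log2 change of Il1b in EPM, 7.71 at 1 h (SE 0.08, 209-fold, adjusted p = 1.20e-20), was the largest fitted value of the 10 genes in the 6 comparisons with KLA, some of which are bounds. At 12 h in EPM Il1b was at least 125-fold higher with KLA (log2 change 6.97, adjusted p = 5.67e-21), and in BMDM it rose by 5.83 at 1 h (56.9-fold, adjusted p = 4.75e-19) and at 12 h by 4.88 (29.5-fold, adjusted p = 8.91e-19). The change was larger in EPM than in BMDM by 1.88 at 1 h (adjusted p = 4.33e-09), and the KLA level in EPM fell by 2.38 from 1 h to 12 h (adjusted p = 3.24e-14).

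For Il1a, the probe with the higher mean (chr2:128991699-128991758, minus strand, mm8, 1 spot) read 7.65 and 7.68 in untreated EPM, 13.66 and 13.51 with KLA for 1 h, 7.69 and 7.60 with DMSO for 12 h and 12.15 and 12.14 with KLA for 12 h. In BMDM both controls were not well above background (6.02 and 6.09 at 1 h, 5.97 and 6.05 at 12 h), and KLA gave 11.00 and 10.70 at 1 h and 10.16 and 9.94 at 12 h. Controls and KLA replicates were separate throughout, and EPM exceeded BMDM with KLA at both times. Il1a rose by 5.92 in EPM at 1 h (SE 0.10, 60.4-fold, adjusted p = 1.02e-18) and at 12 h by 4.50 (22.6-fold, adjusted p = 1.34e-17). In BMDM it rose at least 27.4-fold at 1 h (adjusted p = 2.98e-17) and at least 15.8-fold at 12 h (adjusted p = 7.15e-17). The KLA level was higher in EPM than in BMDM by 2.73 at 1 h and by 2.09 at 12 h. The difference of the changes, 1.12 at 1 h and 0.46 at 12 h, has an unmeasured BMDM control within it, and its direction was reversed with the processed signal, at -0.71 and -1.07, while with an offset of 16 it was 0.38 (adjusted p = 0.329) and -0.32 (adjusted p = 0.224), and without replicate 2 of BMDM KLA 12 h the 12 h value missed the threshold (0.35, adjusted p = 0.0612). The other Il1a probe (chr2:128994430-128996164, its ends 1735 bases apart) rose by 5.79 and 4.49 in EPM at 1 h and 12 h and at least 14.3-fold and 10.0-fold in BMDM.

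Il1rn encodes the IL-1 receptor antagonist, which occupies the receptor without signalling. Its brighter probe (chr2:24172614-24172673, plus strand, mm8, 1 spot) read 11.67 and 11.77 in untreated EPM, 13.47 and 13.25 with KLA for 1 h, 12.44 and 12.16 with DMSO for 12 h and 15.94 and 15.75 with KLA for 12 h. In BMDM the values were 12.28 and 12.10 with DMSO for 1 h, 12.75 and 12.44 with KLA for 1 h, 11.76 and 11.70 with DMSO for 12 h and 15.29 and 15.06 with KLA for 12 h. The 12 h KLA samples were the highest in both macrophage types, the reverse of the order seen for Tnf, Il1a and Il1b. Il1rn rose by 1.64 in EPM at 1 h (SE 0.11, 3.13-fold, adjusted p = 2.35e-09), by 3.54 in EPM at 12 h (11.6-fold, adjusted p = 5.41e-15) and by 3.45 in BMDM at 12 h (10.9-fold, adjusted p = 6.61e-15). Its change in BMDM at 1 h, 0.41 (1.33-fold, adjusted p = 0.011), passed the test but missed it without replicate 2 of the DMSO 1 h control (adjusted p = 0.113) or without replicate 1 of KLA 1 h (adjusted p = 0.179). The change was larger at 12 h than at 1 h by 1.90 in EPM (adjusted p = 1.69e-08) and by 3.04 in BMDM (adjusted p = 1.66e-11). It differed between EPM and BMDM by 1.24 at 1 h (adjusted p = 2.99e-05), and by 0.09 (SE 0.16) at 12 h (adjusted p = 0.671). The dimmer probe changed by 1.17 and 3.25 in EPM and by 0.46 and 3.44 in BMDM at 1 h and 12 h.

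Il6 encodes interleukin 6, which drives the acute phase response and acts on B and T cells. Its probe (chr5:30350609-30350668, plus strand, mm8, 10 spots) read 6.60 and 6.51 in untreated EPM, 9.67 and 9.57 with KLA for 1 h, 6.52 and 6.56 with DMSO for 12 h and 10.00 and 9.99 with KLA for 12 h. In BMDM the controls were not well above background (6.12 and 6.13 at 1 h, 6.05 and 6.07 at 12 h), and KLA gave 12.19 and 12.20 at 1 h and 11.30 and 11.24 at 12 h. Il6 was thus higher with KLA in BMDM than in EPM at both times, opposite to Il1a, with no overlap of replicates. The change in EPM was 3.07 at 1 h (SE 0.06, 8.39-fold, adjusted p = 3.61e-17) and 3.45 at 12 h (10.9-fold, adjusted p = 1.29e-18). BMDM had at least 67.2-fold more Il6 signal with KLA at 1 h (adjusted p = 3.44e-21) and at least 36.4-fold more at 12 h (adjusted p = 8.22e-21). The change was smaller in EPM than in BMDM, with a difference of -3.00 at 1 h (SE 0.09, adjusted p = 4.23e-13) and of -1.76 at 12 h (adjusted p = 2.19e-11), as fitted changes with an undetected BMDM control. Over time the change rose by 0.38 in EPM (adjusted p = 0.00175), which missed the threshold with the processed signal (0.42, adjusted p = 0.245). The BMDM KLA level of Il6 at 12 h was lower than at 1 h, by 0.93.

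**Figure D2:**
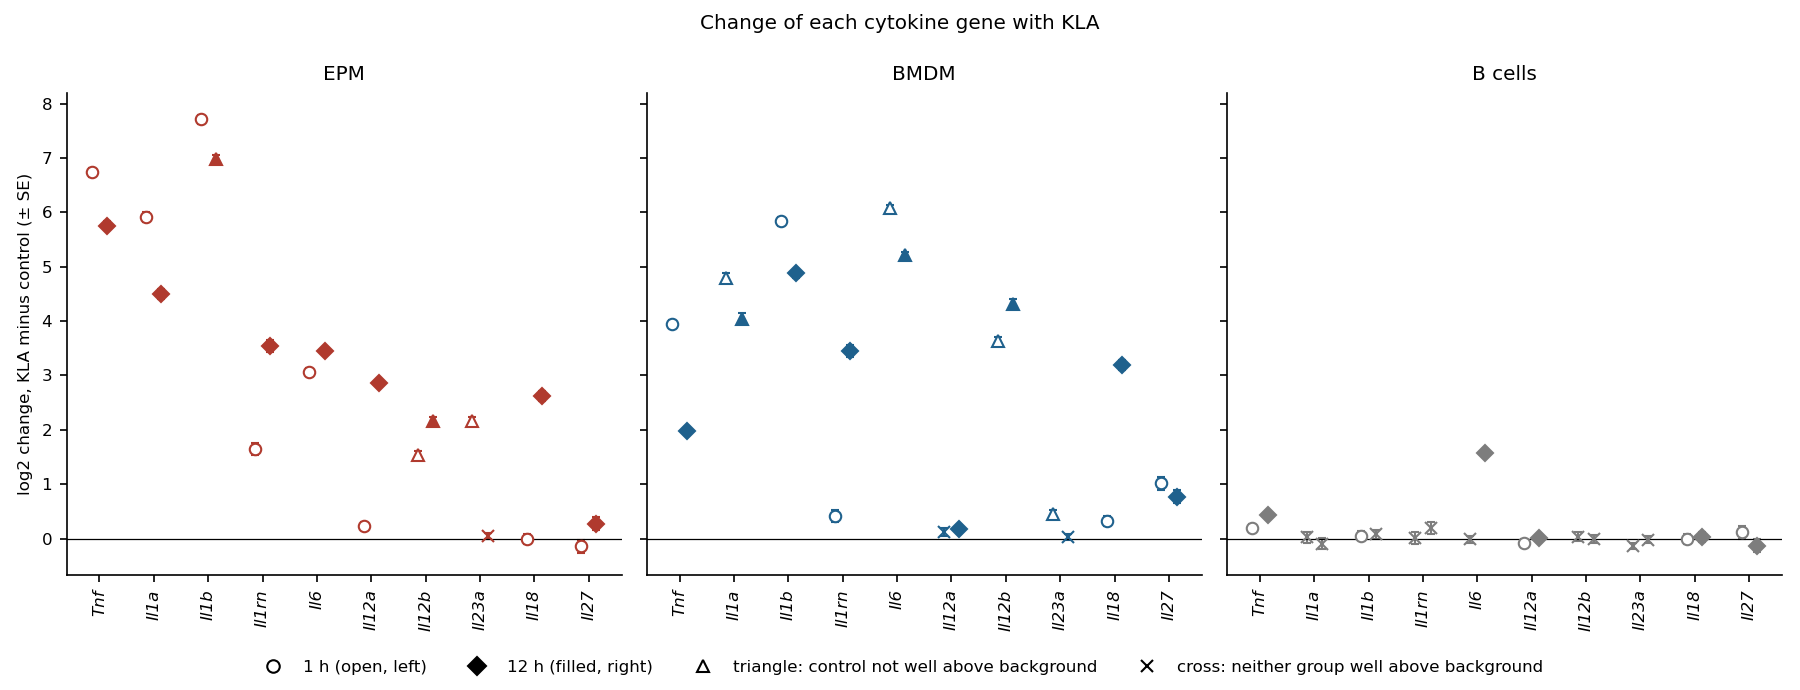
Log2 change with KLA against the same-time control (vertical axis, points with SE bars) of the 10 genes in EPM, BMDM and B cells, open at 1 h and filled at 12 h, with triangles where the control was not well above background and crosses where neither group was. The control at 1 h was untreated cells in EPM and B cells and DMSO in BMDM. Tnf changed more at 1 h than at 12 h in both macrophages, whereas Il1rn and Il18 changed more at 12 h.

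Il12b encodes the p40 chain shared by IL-12 and IL-23. Its probe (chr11:44257042-44257101, plus strand, mm8, 10 spots) was at background in every control of both macrophages, where it read 5.94 to 6.03. With KLA it read 7.62 and 7.47 in EPM at 1 h and 8.13 and 8.10 at 12 h, and 9.65 and 9.62 in BMDM at 1 h and 10.49 and 10.15 at 12 h. BMDM with KLA stood above EPM with KLA at each time, and 12 h above 1 h within each cell type. Il12b was at least 2.90-fold higher with KLA in EPM at 1 h (adjusted p = 3.52e-11) and at least 4.16-fold at 12 h (adjusted p = 4.27e-14). In BMDM the bounds were 11.8-fold at 1 h (adjusted p = 1.05e-16) and 19.3-fold at 12 h (adjusted p = 2.00e-18). The KLA level was lower in EPM than in BMDM, with a difference of -2.09 at 1 h (adjusted p = 7.02e-14) and of -2.21 at 12 h.

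Il12a encodes p35, the partner of p40 in IL-12, and its probe lay at chr3:68782115-68782174 (plus strand, mm8, 1 spot). In EPM it read 6.11 and 6.27 untreated, 6.33 and 6.52 with KLA for 1 h, 6.25 and 6.27 with DMSO for 12 h, where 1 of 2 replicates was well above background, and 9.07 and 9.18 with KLA for 12 h. The only large macrophage value was that of EPM at 12 h, where the change was 2.87 (SE 0.07, 7.31-fold, adjusted p = 1.10e-16). BMDM stayed near background, at 5.87 to 6.09 in the 1 h samples, none of them detected, at 6.22 and 6.19 with DMSO for 12 h and at 6.38 and 6.39 with KLA for 12 h. The small changes of Il12a in EPM at 1 h (0.24, adjusted p = 0.0165) and in BMDM at 12 h (0.18, adjusted p = 0.0357) each missed the threshold when single replicates were left out, with adjusted p of 0.216 without replicate 1 of untreated EPM, 0.226 without replicate 2 of EPM with KLA for 1 h, and 0.0753 to 0.129 without any 1 of the 4 BMDM 12 h replicates. The 12 h change was larger in EPM than in BMDM by 2.69 (adjusted p = 4.72e-13) and larger at 12 h than at 1 h in EPM by 2.63 (adjusted p = 1.97e-13).

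Il23a encodes p19, the partner of p40 in IL-23. The probe (chr10:127699659-127699718, minus strand, mm8, 1 spot) was well above background in 2 conditions of the 12, with 8.06 and 8.12 in EPM and 6.43 and 6.40 in BMDM, each after 1 h of KLA. All other channels read between 5.87 and 6.14, so that the 1 h KLA samples stood clear of the rest in both macrophages. Il23a was at least 4.32-fold higher with KLA in EPM at 1 h (log2 change 2.17, SE 0.06, adjusted p = 2.11e-15) and at least 1.27-fold higher in BMDM at 1 h (0.46, adjusted p = 9.69e-06). At 12 h neither KLA nor control was detected in EPM (adjusted p = 0.547) or BMDM (adjusted p = 0.721). The 1 h KLA level was higher in EPM than in BMDM by 1.68 (adjusted p = 2.47e-14). Among the chains of IL-12 and IL-23 in EPM, Il23a was thus detected only at 1 h, Il12a rose 7.31-fold at 12 h, and Il12b was detected with KLA at both times.

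Il27 encodes the p28 chain of IL-27, which can dampen T cell responses. Its probe (chr7:126383771-126383830, minus strand, mm8, 1 spot) was well above background in every channel. EPM read 9.53 and 9.61 untreated, 9.35 and 9.50 with KLA for 1 h, 9.34 and 9.55 with DMSO for 12 h and 9.66 and 9.78 with KLA for 12 h. BMDM read 8.13 and 8.63 with DMSO for 1 h, 9.30 and 9.48 with KLA for 1 h, 8.99 and 9.15 with DMSO for 12 h and 9.75 and 9.94 with KLA for 12 h. The EPM values lay close together, and the DMSO 1 h control of BMDM was the lowest macrophage condition, with its replicates furthest apart. Il27 rose in BMDM by 1.01 at 1 h (SE 0.12, 2.02-fold, adjusted p = 3.40e-06) and at 12 h by 0.77 (1.70-fold, adjusted p = 1.72e-05). The controls of BMDM also differed from each other, DMSO 1 h being the lower (difference -0.70, adjusted p = 0.000318). In EPM the change was -0.14 at 1 h (adjusted p = 0.434) and 0.27 at 12 h (adjusted p = 0.0633), and the latter passed the threshold with the replicate block (adjusted p = 0.0101) and without replicate 2 of DMSO 12 h (0.38, adjusted p = 0.0397). It also passed without normalization between arrays (0.37, adjusted p = 0.0157), in the authors' normalized values (0.34, adjusted p = 0.0327), in a fit to the EPM arrays alone (adjusted p = 0.0233) and with changes centred on all genes (0.34, adjusted p = 0.025). The changes differed between EPM and BMDM at 1 h (-1.15, SE 0.17, adjusted p = 0.000131) and at 12 h (-0.49, adjusted p = 0.0231), the latter missing the threshold without replicate 2 of EPM DMSO 12 h, replicate 1 of EPM KLA 12 h, replicate 1 of BMDM DMSO 12 h or replicate 2 of BMDM KLA 12 h (adjusted p of 0.0795 to 0.105), and at -0.08 without normalization between arrays (adjusted p = 0.717). With KLA, the levels of EPM and BMDM differed by 0.04 at 1 h (adjusted p = 0.813) and at 12 h by -0.12 (adjusted p = 0.384).

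Il18 encodes interleukin 18, an IL-1 family cytokine that is kept as an inactive precursor in resting macrophages and acts with IL-12 to induce interferon γ. Its probe spans 2129 bases between its mapped ends (chr9:50331595-50333723, plus strand, mm8, 10 spots) and was well above background in every channel. In EPM it read 8.77 and 8.61 untreated, 8.75 and 8.59 with KLA for 1 h, 8.37 and 8.30 with DMSO for 12 h and 11.05 and 10.87 with KLA for 12 h. In BMDM it read 9.24 and 9.04 with DMSO for 1 h, 9.53 and 9.41 with KLA for 1 h, 9.14 and 8.94 with DMSO for 12 h and 12.31 and 12.14 with KLA for 12 h. Only the 12 h KLA samples stood far from the rest in both cell types. Il18 rose by 2.62 in EPM (SE 0.09, 6.17-fold, adjusted p = 2.80e-14) and by 3.19 in BMDM (9.10-fold, adjusted p = 1.37e-15) at 12 h. At 1 h the change was -0.02 in EPM (adjusted p = 0.924) and 0.33 in BMDM (adjusted p = 0.0132), and the latter missed the threshold without replicate 2 of the DMSO 1 h control (adjusted p = 0.157) or replicate 1 of KLA 1 h (adjusted p = 0.117). The 12 h change was larger than the 1 h change by 2.64 in EPM (adjusted p = 1.04e-11) and by 2.86 in BMDM (adjusted p = 2.82e-12), and smaller in EPM than in BMDM at 12 h (-0.56, adjusted p = 0.00193). That difference between EPM and BMDM at 12 h missed the threshold with the processed signal (-0.45, adjusted p = 0.0519). At 1 h the difference between EPM and BMDM was -0.34 (adjusted p = 0.126), and it passed the threshold with the replicate block (adjusted p = 0.00235).

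The differences between the macrophage types and between the times were tested for all genes. The early control was untreated in EPM and DMSO in BMDM. The differences between EPM and BMDM at 1 h and between the times in EPM therefore rest on unlike controls. Untreated EPM minus EPM with DMSO for 12 h was 1.18 for Tnf, 1.65 for Il1b, 0.35 for Il18 and -0.59 for Il1rn. The part of the vehicle in these values was not tested. At 1 h the change with KLA differed between EPM and BMDM for 8 of the 10 genes, against 9.56% of all genes tested. It was larger in EPM for Tnf, Il1a, Il1b, Il1rn and Il23a (4.07% of all genes) and larger in BMDM for Il6, Il12b and Il27 (5.49%). At 12 h it differed for 8 genes, against 47.8% of all genes, with Tnf, Il1a, Il1b and Il12a larger in EPM (23.2% of all genes) and Il6, Il12b, Il18 and Il27 larger in BMDM (24.6%). Where the control was undetected, as for Il1a in BMDM, the difference is one of fitted changes and sets no bound. Between 1 h and 12 h the change differed for 9 genes in EPM, against 43.7% of all genes, with Il1rn, Il6, Il12a, Il12b and Il18 larger at 12 h (19.4% of all genes) and Tnf, Il1a, Il1b and Il23a larger at 1 h (24.3%). The direction for Il1b in EPM is not settled, because its 12 h control was undetected and the difference of -0.74 was -0.07 with an offset of 16 (adjusted p = 0.745) and 1.57 with the processed signal (adjusted p = 0.00255). With the processed signal Il6 (0.42, adjusted p = 0.245) and Il12b (0.92, adjusted p = 0.0865) in EPM missed the threshold. With the replicate block Il27 was called in EPM as well (0.42, adjusted p = 0.00769). In BMDM the change differed for 8 genes, against 54.4%, with Il1rn, Il12b and Il18 larger at 12 h (24.5% of all genes) and Tnf, Il1a, Il1b, Il6 and Il23a larger at 1 h (29.9%). With the processed signal Il1a (-0.75, adjusted p = 0.117), Il6 (-0.30, adjusted p = 0.386) and Il12b (0.61, adjusted p = 0.229) in BMDM missed the threshold. With the array means as samples, limma called 0 of the 10 genes between EPM and BMDM at 1 h (6 at an unadjusted p under 0.05), where 0% of all genes were called, and 1 at 12 h (Il12b), against 0.617%. The same fit called 5 genes between the times in EPM (Il1a, Il1rn, Il12a, Il23a and Il18), against 7.44% of all genes, and 4 in BMDM (Il1a, Il1rn, Il12b and Il18), against 11.5%. Since the controls of a cell type form 1 group there, these are differences of KLA levels between the times and not of changes. For Tnf in EPM the value was -2.16, where the difference of changes was -0.98.

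**Figure D3:**
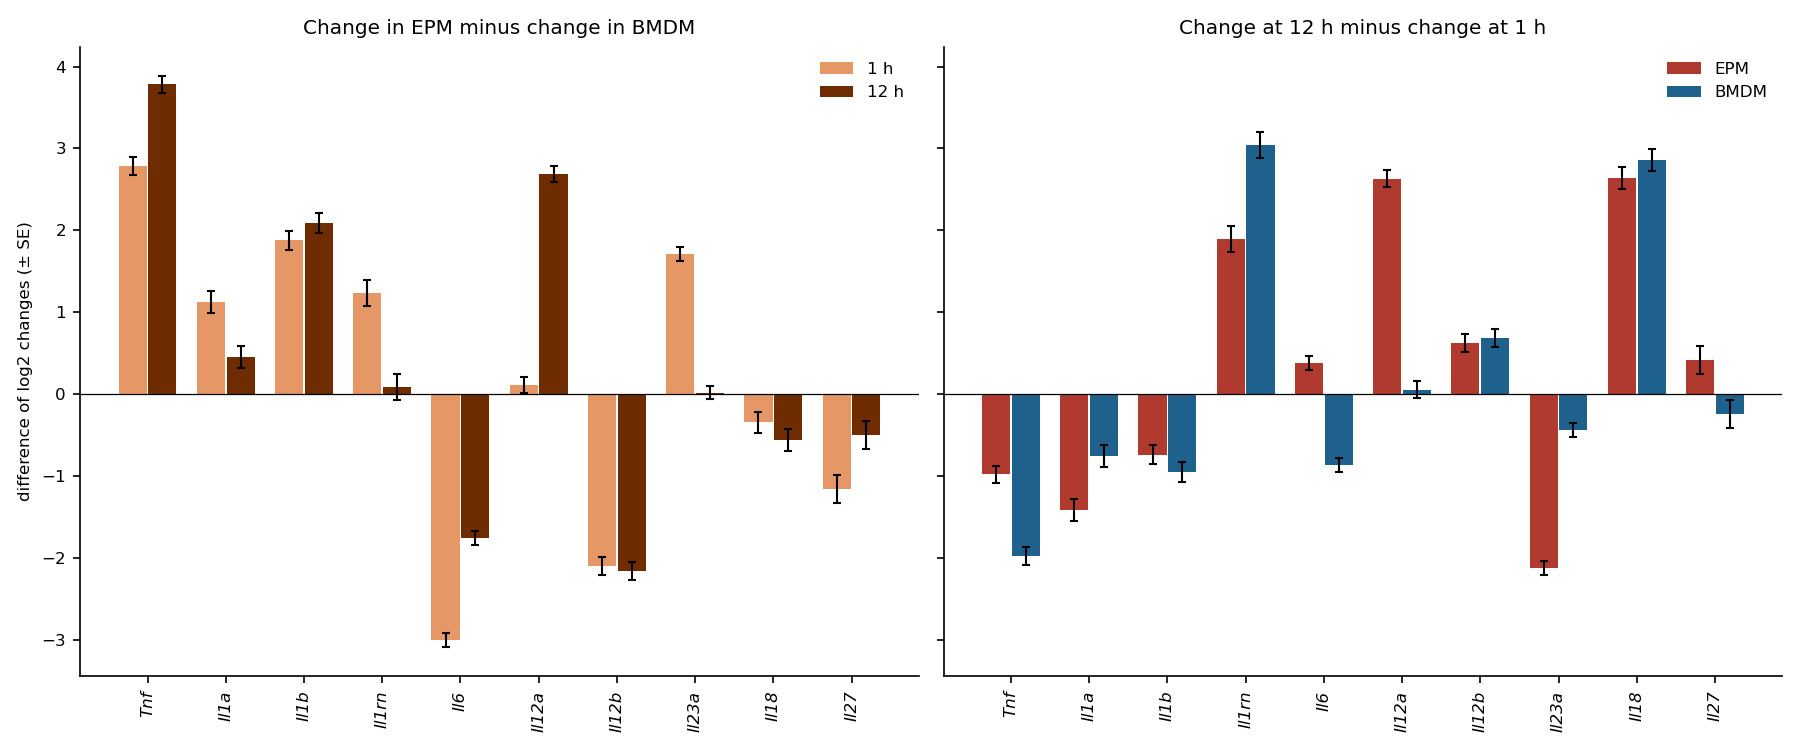
Differences of log2 changes with KLA (vertical axis, bars with SE) for the 10 genes, with EPM minus BMDM at 1 h and 12 h on the left and 12 h minus 1 h in EPM and BMDM on the right. The 1 h control was untreated in EPM and DMSO in BMDM. Tnf reached 3.78 and Il6 -3.00 between EPM and BMDM, and Il1rn reached 3.04 between the times in BMDM.

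In B cells Il1a, Il1rn, Il12b and Il23a were not well above background in any channel, at 5.78 to 6.15. Tnf read 8.40 and 8.29 untreated, 8.56 and 8.51 with KLA for 1 h, 7.23 and 7.35 with DMSO for 12 h and 7.62 and 7.81 with KLA for 12 h, below every macrophage sample with KLA. As labelled in the scanner data, its change was 0.19 at 1 h (SE 0.08, adjusted p = 0.163, or 0.0394 with the replicate block) and 0.43 at 12 h (1.34-fold, adjusted p = 0.00145). Il6 was not well above background untreated (6.02 and 6.05) or with KLA for 1 h (6.00 and 6.04), and it read 7.70 and 7.71 with DMSO for 12 h and 9.16 and 9.38 with KLA for 12 h. It rose by 1.57 at 12 h (2.97-fold, adjusted p = 4.66e-12). Il12a read higher in B cells than in any macrophage condition, at 10.02 and 9.97 untreated, 9.90 and 9.92 with KLA for 1 h, 9.39 and 9.36 with DMSO for 12 h and 9.37 and 9.38 with KLA for 12 h. Untreated EPM lay below untreated B cells in Il12a (difference -3.81, adjusted p = 2.76e-19), on different slides. The change of Il12a with KLA in B cells was -0.08 at 1 h (adjusted p = 0.58) and 0.00 at 12 h (adjusted p = 0.995). Il1b was detected at 7.09 to 7.23 in the untreated and KLA 1 h samples and not well above background in the 12 h samples, while Il18 read 6.83 to 7.12 and Il27 8.18 to 8.58 over all 8 channels.

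With KLA 1 h and DMSO 12 h exchanged in B cells, as the authors' normalized table holds them, 5 of the 10 genes were called at 1 h, against 47.4% of all genes, and 5 at 12 h, against 49.1%. Il6 then rose by 1.67 at 1 h and by 3.25 at 12 h, so that its rise at 12 h was present under either assignment. Tnf then fell by 1.06 at 1 h and by 0.82 at 12 h, and the rise of Tnf at 12 h therefore depends on the assignment. Il1b fell by 1.06 at 1 h and by 1.03 at 12 h and Il12a fell by 0.62 and by 0.53 under the exchange. Il23a, which was not detected in any B cell sample, also passed the test at 1 h (-0.17, adjusted p = 0.0254), as did Il27 at 12 h (-0.37, adjusted p = 0.0162).

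**Figure D4:**
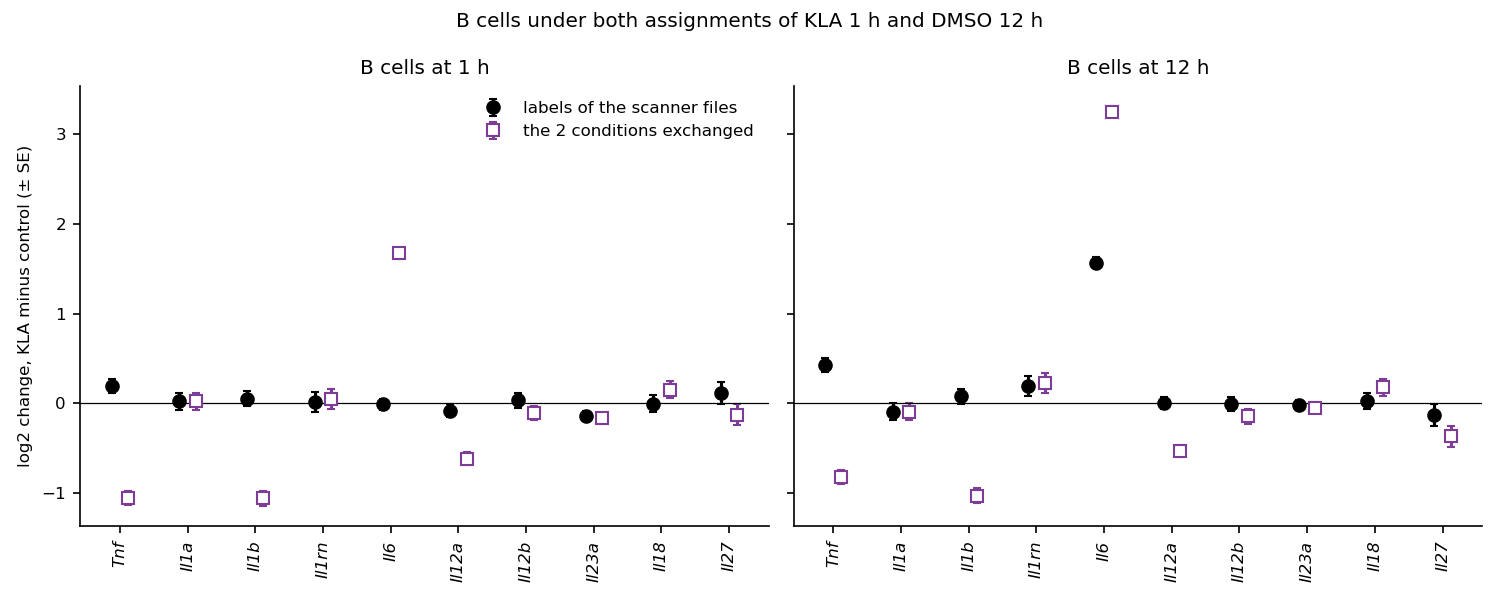
Log2 change with KLA (vertical axis, points with SE bars) of the 10 genes in B cells at 1 h and 12 h, as labelled in the scanner data (black circles) and with KLA 1 h and DMSO 12 h exchanged (open squares). Il6 at 12 h was above 0 under both (1.57 and 3.25), and Tnf at 12 h changed sign (0.43 and -0.82).

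Genes that act with these cytokines were examined as lists, to be read against the shares of all genes that rose and fell with KLA, which were 9.39% and 19.7% in EPM at 1 h, 19.6% and 34.3% in EPM at 12 h, 11% and 17.6% in BMDM at 1 h, and 28.6% and 36.3% in BMDM at 12 h. Of 12 genes of TNF receptors and signalling, 6 rose and 0 fell in EPM at 1 h and 11 rose and 0 fell at 12 h, with a median log2 change of 0.42 and 1.13. The largest 1 h changes were those of Tnfaip3, the ubiquitin-editing inhibitor of NF-κB (4.28, SE 0.07, adjusted p = 6.07e-19), Cflar, an inhibitor of caspase-8 (2.88, SE 0.09, adjusted p = 2.12e-14), and Birc3, a ubiquitin ligase of the receptor complex (1.60, SE 0.08, adjusted p = 8.14e-12). Tnfrsf1b, the second TNF receptor, rose by 1.34 at 1 h and by 2.42 at 12 h in EPM. In BMDM 8 of the 12 rose and 2 fell at 1 h, and 9 rose and 0 fell at 12 h.

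Among 21 genes of IL-1 family receptors, processing and signalling, 5 rose and 2 fell in EPM at 1 h, while 11 rose and 6 fell at 12 h, where 9.39% and 19.6% of all genes rose. Il18bp, the decoy that binds IL-18, fell by 0.26 at 1 h (adjusted p = 0.00582) and rose by 4.66 at 12 h (SE 0.07, 25.3-fold, adjusted p = 4.02e-20), the time at which Il18 itself rose. Casp4, the inflammatory caspase, rose by 1.41 at 1 h and by 3.75 at 12 h, and Nlrp3, the inflammasome sensor, by 1.22 at 1 h (adjusted p = 1.05e-09). Irak1, a kinase below the IL-1 receptor, fell by 0.75 at 12 h and Il1r1, the receptor itself, fell by 0.62. In BMDM 4 rose and 3 fell at 1 h, and 13 rose and 3 fell at 12 h, where 11% and 28.6% of all genes rose.

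The list of other IL-12 and IL-6 family chains, receptors and signalling genes had 18 members tested, of which 6 rose and 1 fell in EPM at 1 h and 13 rose and 2 fell at 12 h, against 9.39% and 19.6% of all genes that rose. Socs3, the feedback inhibitor of the IL-6 receptor, rose by 4.22 at 1 h (SE 0.09, adjusted p = 1.06e-16) and at 12 h by 4.03. Ebi3, the partner of p28, rose by 0.23 in EPM at 1 h (adjusted p = 0.00627). Il12rb1, the receptor chain that binds p40, rose by 3.35 at 12 h (adjusted p = 1.67e-15), with 1 of 2 control replicates well above background, and Il6st, the signalling chain of the IL-6 receptor, fell by 0.68. In BMDM 6 rose and 0 fell at 1 h and 12 rose and 3 fell at 12 h, against 11% and 28.6% of all genes that rose.

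**Figure D5:**
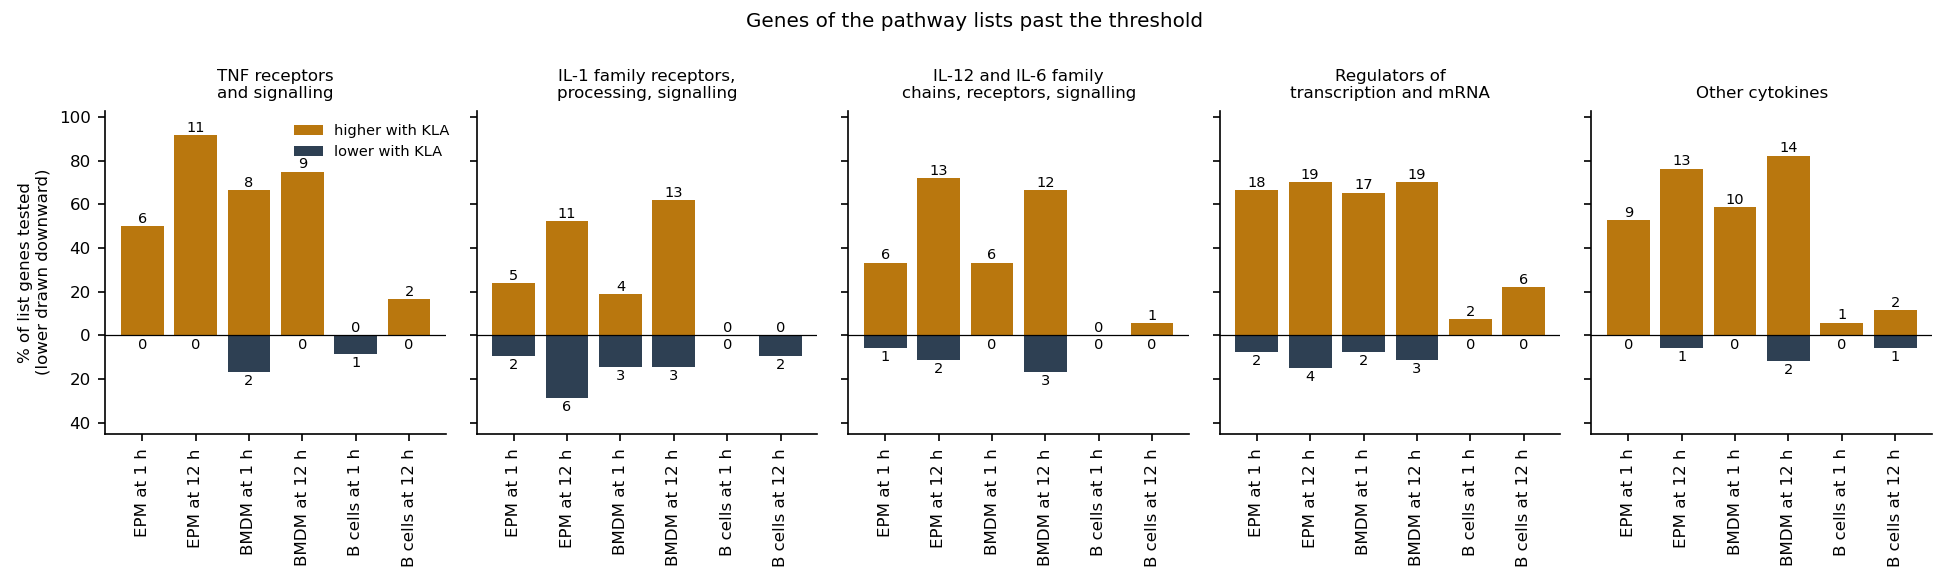
Share of genes of each pathway list (vertical axis, % of the list genes tested) that were higher with KLA (upward bars) or lower (downward bars) at an adjusted p under 0.05 in 6 comparisons, with the number of genes on each bar. In EPM 11 of 12 genes of the TNF list rose at 12 h, against 19.6% of all genes. In B cells at 12 h the most were 6 of the 27 regulators of transcription and mRNA, against 2.81% of all genes.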

How the data were processed

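Each of 12 Agilent 2-colour arrays held 2 biological replicates of a condition, and groups were taken from the labels. The authors deposited scanner intensity values (Feature Extraction 9.5.3.1: mean intensity, median background and processed intensity per spot) and a table of normalized intensity values on a linear scale, whose normalization is not given in the sources used here and which lists Il1a, Il1rn, Il12a, Il23a and Il27 only. Mean intensity was background-corrected with normexp (offset 50, which lowers the fold of dim genes), normalized by loess within and Aquantile between arrays, split into single-channel log2 values and averaged over spots, using the probe with the highest mean per gene. Outlier spots were left out, which left 131 missing values, and no member spot was saturated. A gene entered the test if 1 condition or more had its probe well above background in each channel. The fit used limma 3.58.1 in R 4.3.3 (statmod 1.5.0, data.table version 1.17.8) with a coefficient per condition, 12 residual degrees of freedom and a threshold of 0.05 on the Benjamini-Hochberg adjusted p. The fit was tested on simulated data.

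For a lower bound, the control of each channel was taken as the lowest signal flagged well above background there (5.44 to 6.16) or, where it exceeded this, as the measured value of the probe. The number of arrays and the signal over background limit the precision. For 85 bright probes of 10 spots, the difference between the channels of an array had a standard deviation of 0.118 to 0.190. Spot noise alone gave a standard error of 0.0239 to 0.0399. Because the channels carry different dyes, this spread cannot show whether they hold separate samples, which is taken from the description of the data. Conditions share the dye as replicate name, and the difference between dyes correlated across genes in all 66 pairs of arrays (0.27 to 0.63), which is why the replicate block was fitted as well.

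The members and lists were chosen with earlier results of these data known. Named pathway genes were drawn from the 3 largest and 3 smallest changes past the threshold per list in EPM at each time, and likeness was the highest correlation of condition means over 8 macrophage conditions. Sequences were taken from RefSeq tables, and probe coordinates are those of the files, on mm8. Alternatives were an offset of 16, processed signal, other normalization between arrays, the authors' values, other filters, the mean of probes, fits of fewer arrays, array means, a threshold of 0.01, centring, exchanged B cell labels, the replicate block and leaving out each channel.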

Additional observations from a re-analysis of the deposited data

Results flagged for a closer look

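All results here are differences of log2 changes with KLA that passed the limma test of the difference itself; those with an undetected control are differences of fitted changes and set no bound, and array and condition cannot be told apart in any of them. The control at 1 h was untreated in EPM and DMSO in BMDM, while both had DMSO at 12 h. Between EPM and BMDM at 1 h the difference (EPM minus BMDM) was 2.79 for Tnf, 1.12 for Il1a, 1.88 for Il1b, 1.24 for Il1rn, -3.00 for Il6, -2.10 for Il12b, 1.71 for Il23a and -1.15 for Il27. At 12 h it was 3.78 for Tnf, 0.46 for Il1a, 2.09 for Il1b, -1.76 for Il6, 2.69 for Il12a, -2.16 for Il12b, -0.56 for Il18 and -0.49 for Il27.

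The difference between the times (12 h minus 1 h) in EPM was -0.98 for Tnf, -1.42 for Il1a, -0.74 for Il1b, 1.90 for Il1rn, 0.38 for Il6, 2.63 for Il12a, 0.63 for Il12b, -2.12 for Il23a and 2.64 for Il18. The direction for Il1b is not settled, since its 12 h control was undetected and the value was 1.57 with the processed signal. Those for Il6 and Il12b in EPM missed the threshold with the processed signal, as did Il1a, Il6 and Il12b in BMDM. In BMDM the difference between the times was -1.97 for Tnf, -0.75 for Il1a, -0.95 for Il1b, 3.04 for Il1rn, -0.86 for Il6, 0.69 for Il12b, -0.43 for Il23a and 2.86 for Il18.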

How the results depend on the processing

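Over all alternatives for single genes, 1682 values kept direction and side of the threshold, 70 lost and 20 gained a call, and 13 reversed. Apart from array means and the exchange, shares of all genes called under these alternatives are not given. The counts below therefore describe the cytokine genes alone and cannot be read against all genes. In the main limma fit, 47.8% of all genes were called between EPM and BMDM at 12 h and 54.4% between the times in BMDM. Genes called were 1 in B cells at 1 h and 5 between the times in BMDM with the processed signal. With the authors' values, which cover 5 of the genes, 4 were called in each macrophage comparison, 1 in B cells at either time, 4 and 2 between EPM and BMDM at 1 h and 12 h, and 4 and 3 between the times in EPM and BMDM. Where every channel compared had to be well above background, 5 of 6 remaining genes were called in EPM at 12 h, 5 of 5 in BMDM at 1 h, 4 of 5 and 3 of 4 between EPM and BMDM at 1 h and 12 h, and 5 of 6 and 4 of 5 between the times in EPM and BMDM. Array means gave 5 genes in EPM at 1 h, 3 in BMDM at 1 h, 0 in B cells at 12 h, 0 and 1 between EPM and BMDM at 1 h and 12 h, and 5 and 4 between the times in EPM and BMDM. With array means, those between the times are differences of KLA levels and not of changes. With exchanged B cell labels 5 genes were called at each time. The replicate block called 1 gene in B cells at 1 h (Tnf, adjusted p = 0.0394) and added Il27 in EPM at 12 h (0.0101), Il18 between EPM and BMDM at 1 h (0.00235) and Il27 between the times in EPM (0.00769) as adjusted p-values from limma. It changed no other call.

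Leaving out 1 replicate gave 7 to 8 genes in EPM at 1 h, 8 to 9 in EPM at 12 h, 7 to 9 in BMDM at 1 h, 8 to 8 in BMDM at 12 h, 0 to 0 and 2 to 2 in B cells, 8 to 8 and 6 to 8 between EPM and BMDM at 1 h and 12 h, and 9 to 10 and 8 to 9 between the times in EPM and BMDM. The difference of Il27 between the times was called in EPM without replicate 2 of DMSO 12 h (0.52, adjusted p = 0.0352) and in BMDM without replicate 2 of DMSO 1 h (-0.50, adjusted p = 0.00635).

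Reversed values for Il1a were -0.32 (offset 16) and -1.07 (processed signal) between EPM and BMDM at 12 h, -0.71 at 1 h and -1.04 in B cells at 1 h (processed signal). Il1b between the times in EPM was 1.57 with the processed signal, where its 12 h control was undetected. Il12a in B cells at 12 h was -0.53 with the authors' values and with the exchange, and Tnf there was -0.10 with array means. The exchange also gave -1.06 for Tnf, -1.06 for Il1b and 1.67 for Il6 in B cells at 1 h and -0.82 for Tnf and -1.03 for Il1b at 12 h. The cause of these changes was not tested, other than that the exchange replaces the KLA samples at 1 h and the control at 12 h and that fewer genes or arrays enter the smaller fits. Signal over background limits genes near background.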

Other observations

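Regulators of cytokine transcription and mRNA moved with KLA in both macrophage types. Of 27 tested, 18 rose and 2 fell in EPM at 1 h, and 19 rose and 4 fell at 12 h, where 9.39% and 19.6% of all genes rose and 19.7% and 34.3% fell. In BMDM 17 of 26 rose and 2 fell at 1 h, and 19 of 27 rose and 3 fell at 12 h, where 11% and 28.6% of all genes rose and 17.6% and 36.3% fell. Nfkbiz, a nuclear IκB protein needed for secondary induction of Il6 and Il12b, rose by 6.23 in EPM at 1 h (SE 0.08, adjusted p = 2.83e-20). Nfkbia, the classical inhibitor of NF-κB, rose by 4.62 at 1 h (adjusted p = 1.13e-16). Irf7, which amplifies the interferon response, rose by 5.64 in EPM at 12 h (SE 0.20, adjusted p = 2.28e-14). Irf8 fell by 0.98 in EPM at 1 h (adjusted p = 4.15e-08) and at 12 h by 0.85 (adjusted p = 6.95e-08). In B cells, as labelled, 2 of 27 rose at 1 h, where 5.17% of all genes were called in either direction. At 12 h 6 of the 27 rose, against 2.81% of all genes.

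Among 17 other cytokine genes tested, 9 rose and 0 fell in EPM at 1 h and 13 rose and 1 fell at 12 h, and in BMDM 10 rose and 0 fell at 1 h and 14 rose and 2 fell at 12 h, to be read against the same shares of all genes. Ifnb1, encoding interferon β, was at least 181-fold higher in EPM at 1 h (adjusted p = 3.24e-20). Tnfsf9, the ligand of 4-1BB, rose by 6.07 (67.1-fold, adjusted p = 1.79e-20), and Il10, the anti-inflammatory cytokine, rose by 3.32 at 1 h in EPM (9.97-fold, adjusted p = 7.51e-17). Ifng, encoding interferon γ, was at least 6.16-fold higher in EPM at 12 h (adjusted p = 3.77e-14), where 7 to 8 of 10 T cell markers and 0 to 1 of 6 NK cell markers were well above background in EPM. The summed log2 level of the T cell markers was 10.69 to 10.88 over the EPM conditions, and that of the NK cell markers 8.59 to 8.70. At 12 h the T cell marker Lck read 6.35 with DMSO and 8.00 with KLA, while Cd3d, Cd3g and Cd8a read 6.03 to 6.13 with DMSO, where none was well above background, and 6.14 to 6.15 with KLA, where 1 of 2 replicates was for each. The part of such cells was not tested.

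The gene whose condition means were most like each cytokine by Pearson r over the 8 macrophage conditions, which share slides, was Zc3h12a for Tnf (r of 0.97), Nfkbib for Il1a (0.99), 3110043O21Rik for Il1b (0.98), Olfr291 for Il1rn (0.99), A430057L12Rik for Il6 (0.99), Gjb2 for Il12a (1.00), 1700003O08Rik for Il12b (0.98), Peg3 for Il23a (0.99), Ly6i for Il18 (1.00) and Slc27a5 for Il27 (0.95). These are descriptions over 8 points.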
